A study of Mus musculus with 6 samples.

Results

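The Hippo pathway transducers YAP and TAZ and the genes they act on were followed in liver endothelial cells (ECs) of young and aged mice. The members were 10 named genes, Ankrd1, Ctgf, Cyr61, Amotl1, Amotl2, Yap1, Wwtr1, Tead1, Lats2 and Axl, out of 24421 gene symbols in the count table and 24346 in the FPKM table, and all 10 were found in both tables. Ctgf and Cyr61 are the older symbols of Ccn2 and Ccn1. CD31+CD45- cells were sorted from the livers of wild-type C57BL/6J mice, RNA was extracted from 50000 cells per sample, and 3 samples from young (10-week-old) mice were set against 3 samples from aged mice of 127, 131 and 136 weeks. The study worked with female mice, gave no treatment to these animals and called its samples independent, without stating whether each came from 1 mouse. The p-values below therefore measure the spread between these samples.

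In the Hippo pathway, the MST kinases activate the LATS kinases, which phosphorylate the coactivators YAP and TAZ and keep them out of the nucleus. When the kinases are less active, as on stiff matrix, under stretch or at low cell density, YAP and TAZ enter the nucleus, bind TEAD factors and switch on genes such as Ctgf, Cyr61 and Ankrd1. Several of these targets, among them Lats2 and Amotl2, encode inhibitors of YAP and TAZ and so form a feedback loop. In endothelium the pathway is known for its part in vessel sprouting and in the response to flow.

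TEAD factors recognise the letters CATTCC on either strand, so the stretch around the start site was searched for them in the members. RefSeq promoter windows (GRCm38.p6, 250 bases before to 50 bases after each start, a later build than the mm9 of the deposited files) matched 8 of the 10 members, Ctgf and Tead1 being the other two. The upstream 250 bases are shown, 5′ to 3′ on the gene's strand, for the 4 members whose values in aged samples all lay above those in young samples, and capitals mark CATTCC or its reverse complement GGAATG. They are Ankrd1 at chr19:36119845-36120094 (minus strand), Cyr61 at chr3:145649986-145650235 (minus strand), Amotl2 at chr9:102717554-102717803 (plus strand) and Yap1 at chr9:8004597-8004846 (minus strand).
Ankrd1: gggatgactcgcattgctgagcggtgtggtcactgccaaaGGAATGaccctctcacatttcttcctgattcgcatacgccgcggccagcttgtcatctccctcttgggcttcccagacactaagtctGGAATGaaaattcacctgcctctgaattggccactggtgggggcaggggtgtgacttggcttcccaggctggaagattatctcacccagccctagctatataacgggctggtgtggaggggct
Cyr61: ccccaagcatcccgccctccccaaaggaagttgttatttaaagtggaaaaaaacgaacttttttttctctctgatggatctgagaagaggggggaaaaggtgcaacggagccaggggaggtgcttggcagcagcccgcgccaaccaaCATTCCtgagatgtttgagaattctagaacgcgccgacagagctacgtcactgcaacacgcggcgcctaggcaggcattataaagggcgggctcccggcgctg
Amotl2: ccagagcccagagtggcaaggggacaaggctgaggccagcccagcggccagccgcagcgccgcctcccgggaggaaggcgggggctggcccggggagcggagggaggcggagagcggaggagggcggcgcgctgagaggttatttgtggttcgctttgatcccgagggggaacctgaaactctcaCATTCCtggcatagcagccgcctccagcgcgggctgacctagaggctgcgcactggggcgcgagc
Yap1: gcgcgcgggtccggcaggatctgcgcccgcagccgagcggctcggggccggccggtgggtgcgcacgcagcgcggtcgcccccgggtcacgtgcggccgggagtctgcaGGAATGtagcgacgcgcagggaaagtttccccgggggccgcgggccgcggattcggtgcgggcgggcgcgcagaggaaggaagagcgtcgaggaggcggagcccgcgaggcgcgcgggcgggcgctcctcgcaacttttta

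The Ankrd1 window held the motif at 2 places, with its first base 210 and 123 bases upstream of the start. The single motifs of Cyr61, Amotl2 and Yap1 began 103, 65 and 141 bases upstream. Wwtr1 held 1 in each of its 2 overlapping windows, Axl 1, and Lats2 1 in the first of its 2 windows, at base 5 after the start. The motif was thus in at least 1 window of 7 of the 8 matched members, upstream of the start in 6 of them, and in none of Amotl1. Of all 32851 windows of this length, 14.7% held the motif and 1.36% held it at 2 or more places, and 12.6% held it in the upstream 250 bases. The AP-1 motif TGACTCA (both strands, 5.2% of all windows) and the CArG box (1.63%) were found in 0 of the 8 members. The percentages are shares of windows, whereas the members were counted by gene, and Wwtr1 and Lats2 had 2 windows each. The members were picked as YAP and TAZ targets and pathway genes, so the comparison with all windows is a description. These are matches of letters, not measured binding.

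Sequencing depth was similar in the 2 ages, with 23001556 to 31651817 counts per sample, so that 3 counts stood for 0.0948 to 0.130 CPM (the count of a gene scaled to the library total). Lars2 and Rn45s, rows that collect ribosomal RNA reads, took 0.960% to 1.29% of the counts in young replicate 3 and the 127-week sample and 4.68% to 5.53% in the other 4 libraries, a split that crosses age. The endothelial label was checked with 10 markers, all of which were detected (summed CPM of 19439 to 21056 in young and 9527 to 14892 in aged samples), and 7 of them, among them the sinusoidal genes Stab2, Clec4g and Mrc1, had every aged value below every young value, beside 8.33% of all genes tested. The sinusoidal gene Lyve1 did not, with a CPM of 391, 537 and 671 in young and 661, 223 and 1506 in aged samples. Pecam1 and Cdh5 overlapped between ages as well. The CPM of Pecam1 was 1369, 1373 and 1589 in young and 1366, 1374 and 1635 in aged samples. That of Cdh5 was 459, 469 and 351 in young and 241, 404 and 461 in aged samples. Leukocyte markers, which the CD45- gate is meant to leave out, summed to a CPM of 35.2 to 76.9 in young samples and to 187, 38.1 and 524 in the 127-, 131- and 136-week samples. In sorted bulk cells, fewer cells of a type and less RNA per cell cannot be told apart.

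Levels are given as deposited FPKM, which correct for transcript length. Age differences are log2 fold changes (aged over young) of TMM-normalized CPM from an edgeR fit to the 14612 genes that reached a CPM of 0.5 in any sample. The 10 members were selected on the aged against young values of these same 6 samples, so their age differences are a description and carry no p-value. In CPM the ages did not overlap for 4 of the 10 members, as for 17.9% of all genes tested. All 4 were higher in aged samples, where 9.62% of all genes were, and 0 were lower, where 8.33% were. Ankrd1 passed the CPM filter only through the 3 aged samples, and the other 9 members passed it in all 6 samples.

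Among the target genes, Ankrd1 showed the widest range of the 10 members and the lowest level of the targets. Ankrd1 encodes a cardiac and muscle ankyrin repeat protein that shuttles between sarcomere and nucleus, and lies on chromosome 19 (36186455 to 36194334 of mm9, minus strand). Its FPKM was 0.138, 0.140 and 0.280 in the young samples (0.186 ± 0.0816, mean and SD, n = 3) and 1.88, 0.552 and 1.5 in the aged samples (1.31 ± 0.684, n = 3), where values here and below are listed in the order of young replicates 1 to 3 and of 127, 131 and 136 weeks. The 131-week sample stood between the young samples and the other aged samples, and the ages did not overlap. The values rested on 6, 5 and 14 reads in young and 89, 24 and 66 reads in aged samples. The log2 fold change was 2.87 (standard error 0.65), a ratio of 7.32, and it stayed between 2.58 and 3.28 when each sample was left out in turn. Between the 4 libraries with many Lars2 and Rn45s reads the log2 difference between ages was 2.48, and between the 2 with few it was 2.60.

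**Figure D1:**
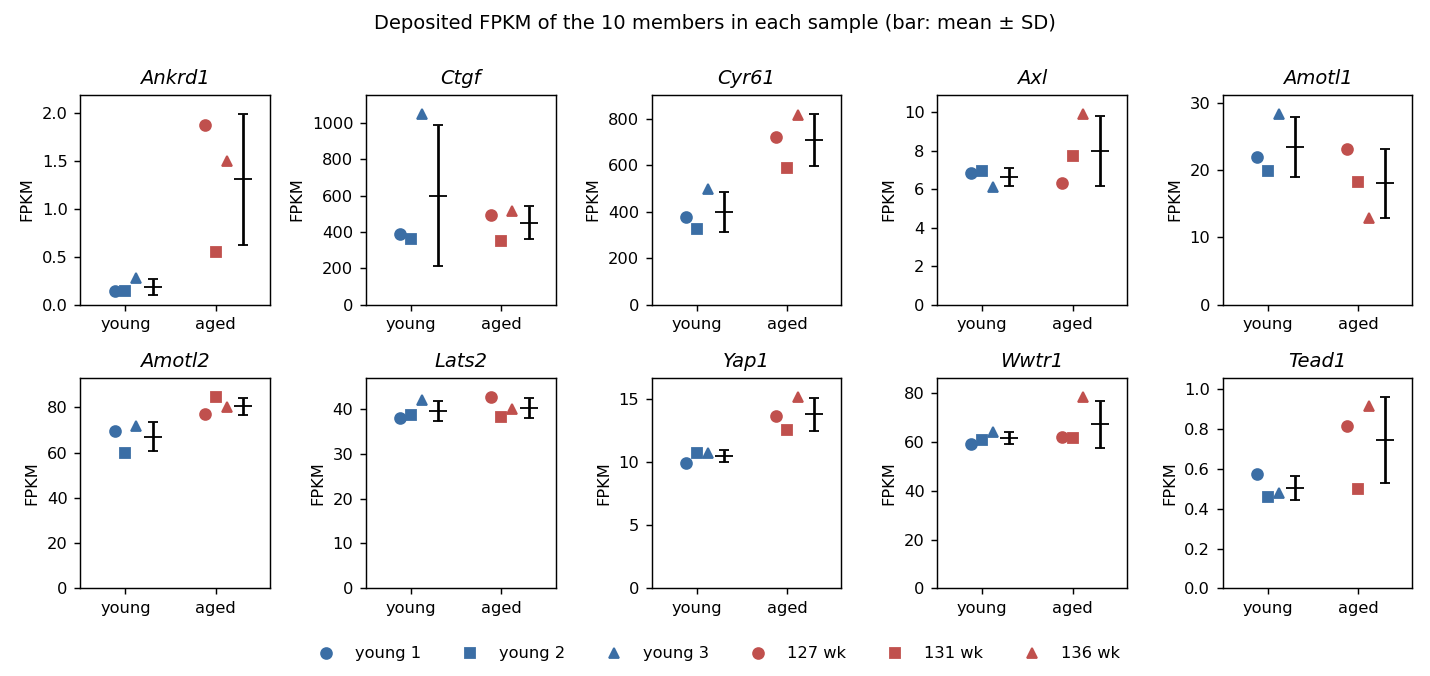
Deposited FPKM (linear axes starting at 0, each gene on its own scale) of the 10 members in 3 young (blue) and 3 aged (red) samples, 1 symbol per sample, with the mean ± SD of each age in black. The ages are apart for Ankrd1, Cyr61, Amotl2 and Yap1, while young replicate 3 stands alone for Ctgf at 1049.95.

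Cyr61 and Ctgf encode secreted matricellular proteins of the CCN family, and both were abundant, with mean levels ranking 122 and 130 among the 24346 genes in the FPKM table. Cyr61 (chromosome 3, 145309935 to 145312949, minus strand) had an FPKM of 378, 324 and 497 in young and 724, 591 and 816 in aged samples, so each aged sample lay above each young sample. Its log2 fold change was 0.83 (standard error 0.22), a ratio of 1.78, and it stayed between 0.71 and 1.01 with each sample left out. Cyr61 is also an immediate early gene. A list of 10 immediate early and dissociation response genes summed to a CPM of 16291 to 19760 in young and 20611 to 28244 in aged samples. Of the 10, 5 were higher in each aged sample, beside 9.62% of all genes tested. The part of that response in the Cyr61 values was not tested.

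Ctgf (chromosome 10, 24315248 to 24318489, plus strand) had an FPKM of 391, 359 and 1049.95 in young and 491, 349.8 and 513 in aged samples. Young replicate 3 stood far above the other 5 samples, which overlapped between ages. The log2 fold change was -0.39 (standard error 0.42), and without young replicate 3 it was 0.26. Between the libraries with many Lars2 and Rn45s reads the log2 difference was 0.18, and between the pair with few, to which young replicate 3 belongs, it was -1.08.

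Within a sample, the FPKM of Ctgf was 1.04, 1.11 and 2.11 times that of Cyr61 in young samples and 0.678, 0.592 and 0.629 times in aged samples. Ctgf was thus the higher of the 2 in each young sample and the lower in each aged sample. Both are members selected on age, so this change of order is a description too. With the ages pooled, the difference of log2(FPKM + 1) was -0.12 ± 0.70 (SD, n = 6; two-sided exact sign-flip permutation test, p = 0.656, adjusted p = 0.656). As the direction was opposite in the 2 ages, this result does not mean that the levels were equal. Against Ankrd1, Ctgf was 262 to 3748 times higher in FPKM in all 6 samples (two-sided exact sign-flip permutation test, adjusted p = 0.0352), so the target with the widest range between samples was also the scarcest.

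The receptor tyrosine kinase gene Axl (chromosome 7, 26542292 to 26573724, minus strand), whose protein binds GAS6, had an FPKM of 6.85, 6.95 and 6.12 in young and 6.32, 7.72 and 9.94 in aged samples. Only the 131- and 136-week samples exceeded all young samples, and the ages overlapped. The log2 fold change was 0.29 (standard error 0.20), and 0.091 without the 136-week sample.

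The profiles nearest to that of Ankrd1 were not those of other members. Over the 6 samples, the root mean square distance between centred log2 CPM profiles was smallest for H2-DMb1 (0.22), followed by Ikzf3 (0.28), H2-Eb1 (0.28), Prtg (0.29) and H2-Aa (0.30), among 14611 genes. H2-DMb1, H2-Eb1 and H2-Aa encode MHC class II proteins and Ikzf3 a lymphoid transcription factor. H2-DMb1 had a CPM of 3.05, 3.38 and 6.28 in young and 45.1, 10.3 and 42.0 in aged samples, with the 131-week sample the lowest of the aged samples, as for Ankrd1. The leukocyte markers given above also had their lowest aged sum at 131 weeks, 38.1. That sum lay within their young range of 35.2 to 76.9, whereas Ankrd1 at 131 weeks lay above all young samples. The highest leukocyte sum was 524 at 136 weeks, whereas Ankrd1 was highest at 127 weeks. The part of leukocytes in these profiles was not tested. Ranked in the same way, Cyr61 came 672nd (distance 0.94), Tead1 1305th (1.07) and Yap1 2184th (1.18), and Ctgf 8041st (1.44). These distances are a description over 6 samples that also differ in age.

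**Figure D2:**
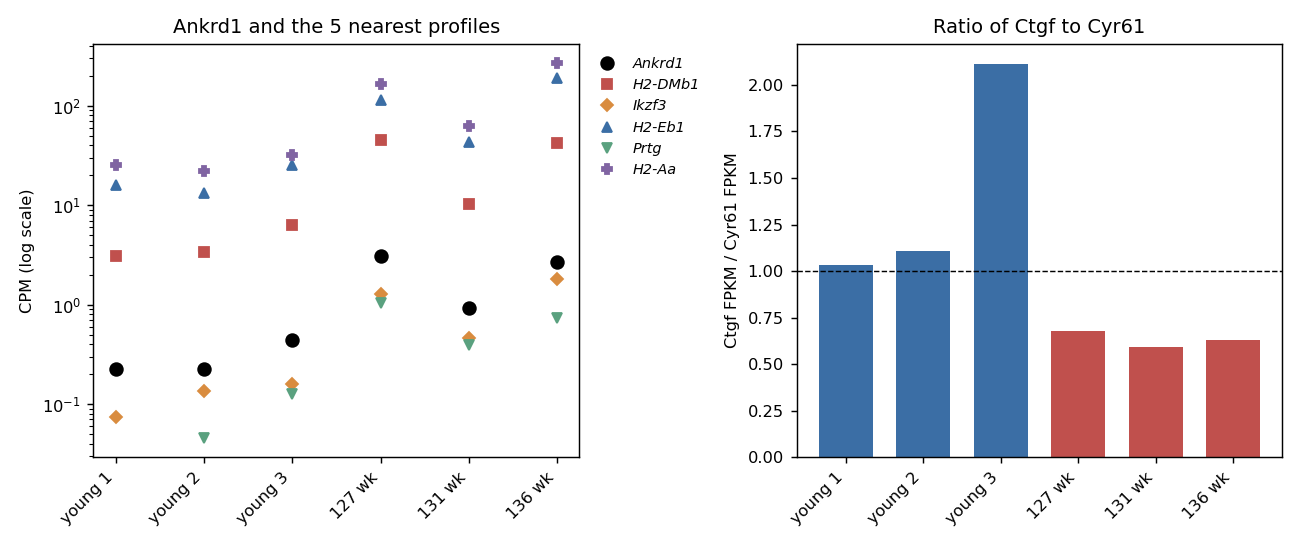
Left, CPM (log axis) of Ankrd1 and the 5 genes nearest to it in each of the 6 samples, 1 symbol per gene, with the Prtg value of 0 in young replicate 1 not drawn. Right, bars of the ratio of Ctgf to Cyr61 FPKM in each sample, above 1 in the young (blue) and below 1 in the aged (red) samples.

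Markers of other cell types were read beside these targets. Of all genes tested, 9.62% were higher in each aged sample and 8.33% were lower, the shares to set beside the counts below. Cholangiocyte markers summed to a CPM of 89.1 to 106 in young and 192 to 244 in aged samples, most of it Spp1, and to 8.71 to 25.8 and 26.6 to 38.3 without it, with 4 of 8 markers higher in each aged sample. Stellate and mural markers overlapped, with sums of 95.8 to 379 in young and 118 to 275 in aged samples and 1 of 10 markers lower in each aged sample. Young replicate 3, the sample highest in Ctgf, had the lowest sum of stellate and mural markers, 95.8. Hepatocyte markers summed to 137 to 204 in young and 90.8 to 113 in aged samples, and 3 of 10 were lower in each aged sample. Of 7 mesothelial markers, 6 were used, and their sum of 199 to 330 in young and 355 to 553 in aged samples was almost all Gpm6a. The other 5, among them Msln and Upk3b, summed to 3.97 to 7.48 in young and 0.310 to 2.44 in aged samples. Large-vessel EC markers summed to 4846 to 7618 in young and 7201 to 7654 in aged samples, with 2 of 10 higher in each aged sample. The part of these cells in the member values was not tested.

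Among the regulators, the angiomotin family genes Amotl1 and Amotl2 encode junctional scaffold proteins that bind YAP and hold it in the cytoplasm, and Amotl2 is itself a YAP target. Amotl2 (chromosome 9, 102619002 to 102635748, plus strand) had an FPKM of 69.7, 59.8 and 71.9 in young and 77.0, 84.4 and 80.1 in aged samples, apart in age by a small step (log2 fold change 0.27, standard error 0.14). Amotl1 (chromosome 9, 14346410 to 14447973, minus strand) had an FPKM of 22.0, 19.9 and 28.4 in young and 23.2, 18.2 and 12.9 in aged samples. The ages overlapped for Amotl1, with the lowest value in the 136-week sample (log2 fold change -0.37, standard error 0.24, and -0.18 without the 136-week sample).

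Amotl2 was the main angiomotin transcript of these ECs, with 66.7% to 84.2% of the summed FPKM of Amot, Amotl1 and Amotl2. Its FPKM was 2.53 to 6.21 times that of Amotl1 and 9.54 to 37.6 times that of Amot, higher in all 6 samples in both comparisons (two-sided exact sign-flip permutation test, adjusted p = 0.0352 for each). The mean log2 difference from Amotl1 was 1.81, and 1.34 to 1.91 over the alternatives. From Amot it was 3.78, and 3.45 to 4.07 over the alternatives, so the size of these ratios depends on the measure used. The Amotl2 share was 72.1%, 71.6% and 66.7% in young and 73.3%, 78.8% and 84.2% in aged samples, and that of Amotl1 was 22.8%, 23.8% and 26.3% in young and 22.0%, 17% and 13.6% in aged samples. Each aged sample had the higher Amotl2 share and the lower Amotl1 share. Amotl1 and Amotl2 are members selected on age, so this split is a description too. Of all genes tested, 17.9% had ages that did not overlap in CPM.

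Lats2 encodes a kinase that phosphorylates YAP and TAZ. Lats2 (chromosome 14, 58260914 to 58377225, minus strand) had an FPKM of 37.9, 38.6 and 42.1 in young and 42.6, 38.1 and 39.9 in aged samples, the narrowest range of the 10 members (1.12-fold from lowest to highest). The log2 fold change was 0.036 (standard error 0.13). Its paralog Lats1 had an FPKM of 1.91 to 2.84 in the 6 samples, so that Lats2 made up 93.4% to 95.2% of the pair and was higher in all 6 samples (two-sided exact sign-flip permutation test, adjusted p = 0.0352). The mean log2 difference of the pair was 3.57, and 3.08 to 4.03 over the alternatives, so the share depends on the measure used.

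The coactivators YAP and TAZ, encoded by Yap1 and Wwtr1, bind DNA only through partners such as TEAD proteins. Yap1 (chromosome 9, 7931999 to 8004596, minus strand) had an FPKM of 9.90, 10.7 and 10.7 in young and 13.7, 12.5 and 15.1 in aged samples. Each aged sample lay above each young sample, by a log2 fold change of 0.41 (standard error 0.13), a ratio of 1.33. The log2 difference was 0.42 within the 4 libraries rich in Lars2 and Rn45s reads and 0.37 within the other pair. Wwtr1 (chromosome 3, 57259571 to 57379832, minus strand) had an FPKM of 59.3, 60.9 and 64.2 in young and 61.8, 61.4 and 78.3 in aged samples. The other values lay close together and the 136-week sample stood above them, with a log2 fold change of 0.14 (standard error 0.16) that was 0.012 without that sample.

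Wwtr1 was the more abundant coactivator transcript, at 4.52 to 5.99 times the FPKM of Yap1 in all 6 samples (difference of log2(FPKM + 1) 2.32 ± 0.15, SD, n = 6; two-sided exact sign-flip permutation test, p = 0.0312, adjusted p = 0.0352). With CPM per kilobase of merged exons in place of FPKM this difference was 3.34 ± 0.14, so the size of the ratio and of the share depends on the length used. By FPKM, Wwtr1 held 85.7%, 85.0% and 85.7% of the summed FPKM of the pair in young and 81.9%, 83.0% and 83.8% in aged samples. The share was lower in each aged sample, while the sum of the pair, at 69.2, 71.7 and 74.9 in young and 75.5, 74.0 and 93.4 in aged samples, overlapped. Both genes are members selected on age, so the lower share is a description too.

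TEAD proteins bring YAP and TAZ to DNA, and the member among them, Tead1 (chromosome 7, 119822832 to 120050319, plus strand), was scarce. Its FPKM was 0.575, 0.458 and 0.480 in young and 0.815, 0.501 and 0.915 in aged samples. The 131-week sample lay within the young range and the other aged samples above it, with a log2 fold change of 0.56 (standard error 0.30). Per length, Tead2 was 8.63 to 20.3 times and Tead4 2.5 to 4.0 times higher than Tead1, while Tead1 was above Tead3, each in all 6 samples (two-sided exact sign-flip permutation test, adjusted p = 0.0352 for each). With CPM per kilobase of merged exons the mean log2 difference between Tead1 and Tead2 was -1.48 in place of -2.49, a smaller ratio in the same direction. By FPKM, Tead2 made up 66.8% to 80.6% of the summed TEAD FPKM, Tead4 12.5% to 25.8% and Tead1 3.98% to 8.10%. The summed TEAD FPKM was 9.56, 10.7 and 8.95 in young and 12.5, 12.6 and 11.3 in aged samples, which did not overlap. Taken singly, Tead1, Tead2, Tead3 and Tead4 each overlapped between ages. The log2 fold change of Tead2, the largest part of the sum, was 0.27 (edgeR adjusted p = 0.620).

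In all, 9 pairs of genes were compared within samples, and 8 passed an adjusted p of 0.05, each with the smallest p that 6 samples can give (0.0312). Ctgf and Cyr61 were the pair that did not.

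**Figure D3:**
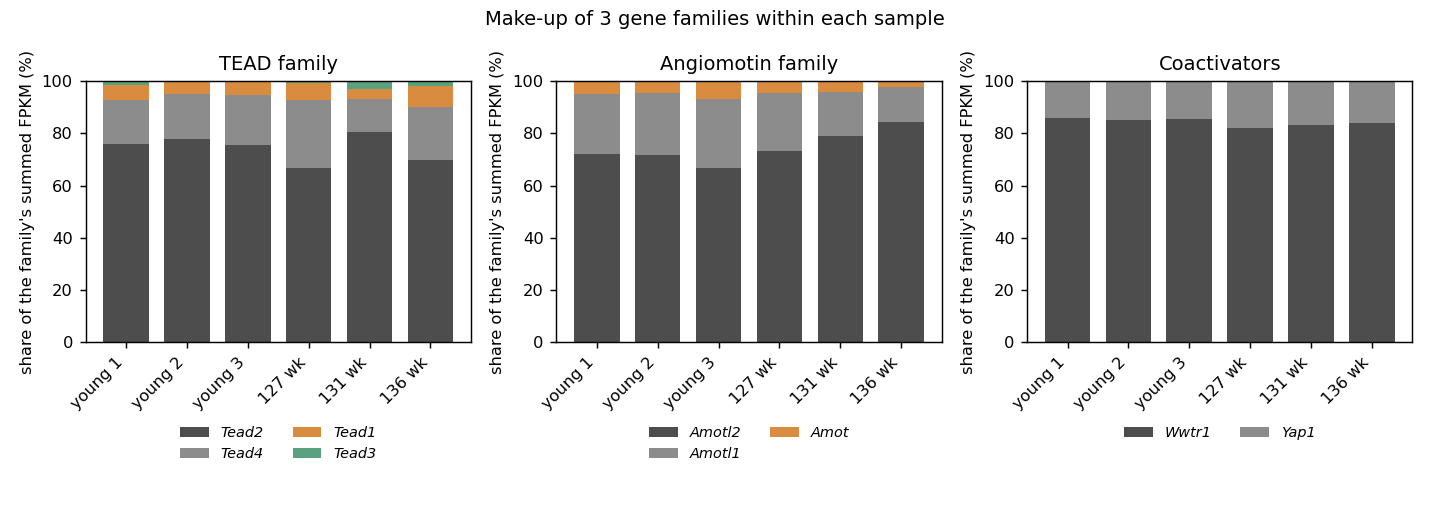
Share (%) of the summed FPKM held by each gene of the TEAD family, the angiomotin family and the coactivator pair, with 1 stacked bar per sample. Tead2, Amotl2 and Wwtr1 hold the largest share in each of the 6 samples.

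The rest of the pathway was read from a list of 25 Hippo genes that are no members, of which 24 were tested. With the edgeR quasi-likelihood test and Benjamini-Hochberg adjustment over all 14612 genes, 0 of the 24 passed an adjusted p of 0.05 with a log2 fold change beyond 1 (0.0% of all genes did). With DESeq2, which called 2.68% of all genes higher and 0.541% lower in aged samples, the count was also 0 of 24. At an unadjusted p below 0.05, 3 were higher in aged samples, where 8.32% of all genes were, and 1 was lower, where 4.32% were. The median log2 fold change of the list was -0.066, beside 0.0098 over all genes tested. The core kinase genes Stk3 and Stk4 (MST2 and MST1), their scaffold Sav1 and the upstream regulator Nf2, named here for their role, differed by -0.21, 0.11, -0.081 and -0.11 on the log2 scale (edgeR adjusted p of 0.621 or more).

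The smallest p of this list belonged to Ajuba, a LIM domain protein that binds and inhibits LATS kinases. Ajuba had an FPKM of 6.41, 4.55 and 5.71 in young and 13.5, 8.15 and 10.3 in aged samples, without overlap. Its log2 fold change was 0.95 (standard error 0.23, edgeR unadjusted p = 0.00395, adjusted p = 0.235), and its adjusted p was 0.0144 with DESeq2 and between 0.0144 and 0.63 over all alternatives. The log2 fold change was 1.46 for Wwc1, which encodes the LATS activator KIBRA, and 0.86 for Frmd6 (edgeR adjusted p = 0.368 and 0.371). Wwc1 was apart in age at a low level (FPKM 0.126 to 0.473 in young and 0.613 to 1.20 in aged samples), and Frmd6 overlapped. Lats1 was apart in age but had an unadjusted p of 0.125 (log2 fold change 0.30, edgeR adjusted p = 0.536).

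On the lower side stood Fat4, an atypical cadherin, with an FPKM of 4.10, 3.52 and 3.03 in young and 2.62, 2.96 and 2.48 in aged samples (log2 fold change -0.40, edgeR unadjusted p = 0.0406, adjusted p = 0.374). The kinase gene Taok3 was also lower in each aged sample (log2 fold change -0.27, edgeR adjusted p = 0.437).

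Other YAP/TAZ targets came from a published signature that was derived in tumours, with 16 genes that are no members, of which 15 were tested. By edgeR 0 of the 15 passed an adjusted p of 0.05 with a log2 fold change beyond 1, as with DESeq2. At an unadjusted p below 0.05, 3 were higher and 1 was lower in aged samples, beside 8.32% and 4.32% of all genes. Of the 15, 12 had a log2 fold change above 0, with a median of 0.26, beside 7462 of the 14612 genes tested and a median of 0.0098, and this difference was not tested. Myof, a membrane repair protein of the ferlin family, had an FPKM of 3.41, 3.33 and 2.22 in young and 5.26, 5.23 and 5.93 in aged samples, without overlap. Its log2 fold change was 0.88 (standard error 0.20, edgeR adjusted p = 0.235), with an adjusted p of 0.0135 in DESeq2 and between 0.0135 and 0.63 over all alternatives.

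F3, which encodes tissue factor, the trigger of coagulation, had an FPKM of 1.07, 0.182 and 0.579 in young and 1.67, 1.19 and 4.25 in aged samples (log2 fold change 1.93, standard error 0.74, edgeR adjusted p = 0.361). The ages were apart, with the 136-week sample well above the rest. The stress gene Gadd45a had an FPKM of 6.84, 6.21 and 14.8 in young and 13.3, 18.7 and 23.4 in aged samples (log2 fold change 1.1, edgeR adjusted p = 0.332). Its ages overlapped, and the log2 difference was 1.76 between libraries with many Lars2 and Rn45s reads and -0.13 between the pair with few. The gene with the smallest p on the lower side was Ccdc80, a matrix protein gene, with an FPKM of 142, 144 and 141 in young and 99.5, 104 and 62.2 in aged samples. Each aged sample lay below each young sample (log2 fold change -0.67, standard error 0.21, edgeR unadjusted p = 0.0156, adjusted p = 0.306).

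**Figure D4:**
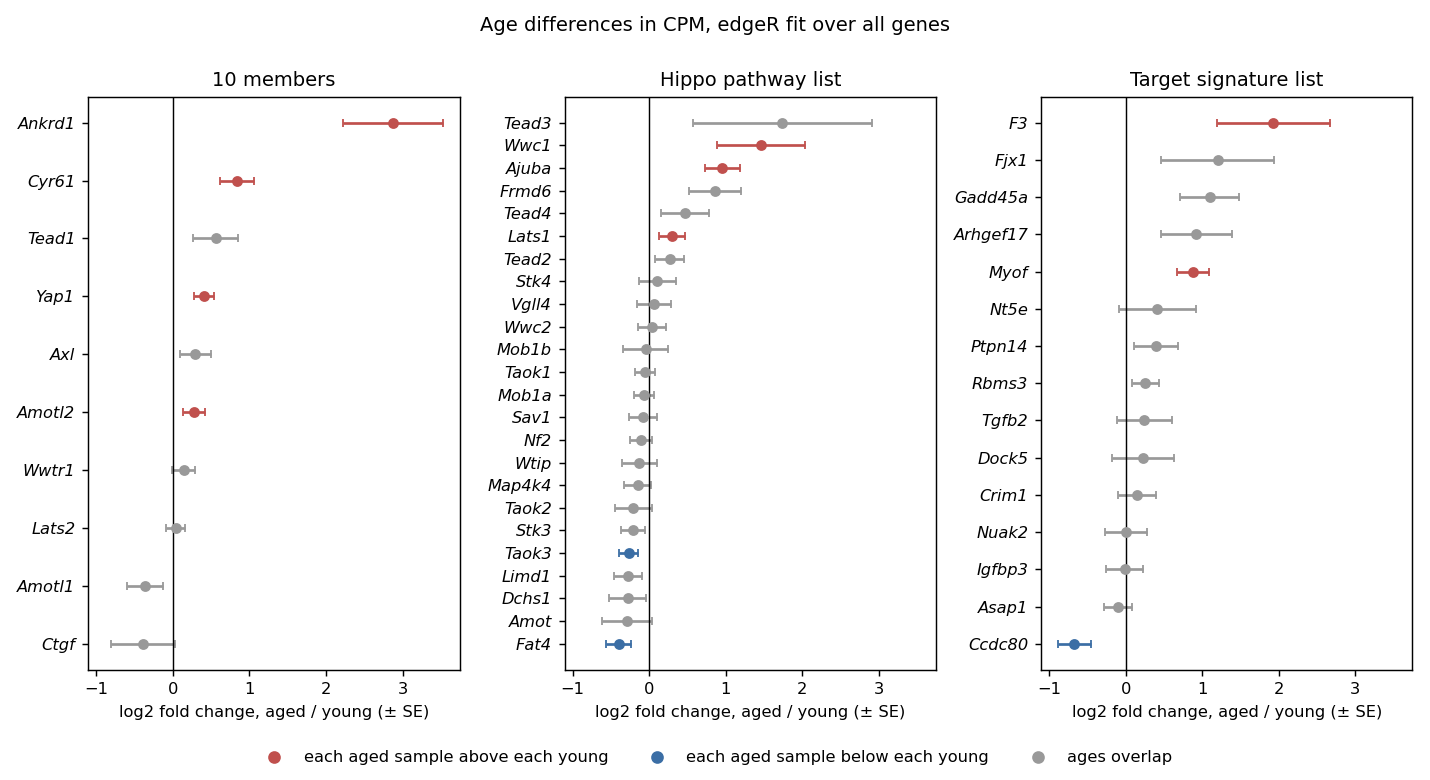
Log2 fold change of CPM (aged over young, ± standard error, edgeR fit over all genes) of the 10 members, the 24 tested Hippo genes and the 15 tested signature genes, 1 point per gene. Red marks genes with each aged sample above each young sample, blue the reverse and grey an overlap of the ages. Ankrd1 lies farthest to the right at 2.87.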

How the data were processed

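RNA of sorted CD31+CD45- liver ECs was prepared with TruSeq Sample Prep v2 and read in 75-base single-end mode. According to the study's methods and the submitters' processing notes, the authors called bases with CASAVA 1.8.2, mapped reads to mm9 with TopHat2 2.1.0 and deposited raw counts per gene symbol, together with FPKM values from Cuffnorm 2.2.1, scaled between samples. The counting program, annotation and strand setting are not given in the sources used here, so overlapping and antisense genes are uncertain.

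Counts were filtered (at least 1 sample at a CPM of 0.5 or more), TMM-normalized and fitted with edgeR 4.0.16 (R 4.3.3). The quasi-likelihood test was adjusted by Benjamini-Hochberg over all 14612 genes, and genes were called at 0.05 when the log2 fold change also passed 1 in size. Its standard error was taken as its size over the root of F. The fit was tested on simulated data. Alternatives used DESeq2 1.42.0, limma 3.58.1 on log2 FPKM (pseudocounts 1 and 0.1), other filters and scalings, a library composition term and the removal of each sample. Levels of gene pairs were compared within samples on log2(FPKM + 1) with two-sided exact sign-flip permutation tests, adjusted over 9 pairs. No 2 replicates were near-identical (smallest chi-square per degree of freedom 21.3). Depth ran from 23001556 to 31651817 counts, and a floor of 3 counts covers counting error only.

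Members and gene lists were chosen with earlier results of these data known. Named genes are the members, their paralogs, up to 4 list genes per direction by smallest p (below 0.05, or ages apart), the 5 profiles nearest to Ankrd1 and the relatives Ankrd2 and Ankrd23. Stk3, Stk4, Sav1, Nf2, Vgll3 and Foxf2 fall outside this rule and were added after their values were seen, the first 4 for their role and the others because they did not pass the filter. Gene positions are from GENCODE for mm9.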

Additional observations from a re-analysis of the deposited data

How the results depend on the processing

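Genes were counted as called at an adjusted p below 0.05 with a log2 fold change beyond 1. Over 14 alternatives to the age fit, the number of Hippo and signature genes called stayed at 0. On adjusted p alone, Ajuba (0.0144) and Myof (0.0135) passed 0.05 with the DESeq2 Wald test, at log2 fold changes of 0.94 and 0.87. Over all genes, 0 were called higher and 0 lower, against 392 and 79 with DESeq2, 3 and 1 without a filter on low counts, 1 and 1 with a library composition term, and 0 to 1 (1 without the 131-week sample) and 0 when each sample was left out. The cause was not tested. At an unadjusted p below 0.05, edgeR gave 1216 higher and 631 lower, against 729 to 1549 higher and 346 to 961 lower over the alternatives. The higher count was 729 without the 136-week sample, 768 without young replicate 2 and 1549 without the 131-week sample. The lower count was 383, 346 and 368 without the 136-week sample or young replicate 2 or 1, 961 with the composition term and 957 with limma on log2(FPKM + 1). Of the Hippo genes, 1 to 4 were then higher (1 without young replicate 3 or the 136-week sample) and 0 to 3 lower, the 1 lower gene being lost without young replicate 1 or 2 or the 127- or 136-week sample and with limma on log2(FPKM + 0.1). Of the signature genes 1 to 4 were higher (1 without young replicate 2 or the 136-week sample) and 1 lower. For 9 members the direction was the same in every alternative, and Ctgf changed sign without young replicate 3 (0.26 in place of -0.39). The Ankrd1 log2 difference was 0.92 on log2(FPKM + 1), since a pseudocount of 1 is larger than most of its values. The 8 gene pairs past the threshold stayed past it with pseudocounts of 0.1 and 0.01 and with CPM per kilobase of merged exons, although the size of the difference moved. With 5 samples the smallest possible p is 0.0625, so leaving out a sample gives no test there, and each of the 8 differences kept its direction. No paired analysis was possible because the labels of the aged samples carry no replicate numbers. Ankrd1 rested on 5 to 14 reads per young sample, which limits its ratio.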

Other observations

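Of the close relatives of Ankrd1 in the muscle ankyrin repeat family, Ankrd2 was below the CPM filter in all 6 samples (FPKM 0.0487 to 0.350). Ankrd23 had a CPM of 1.30, 1.72 and 7.35 in the young samples and, by rising age, 5.98, 1.44 and 0.53 in the aged samples. Its 2 highest values were in young replicate 3 and the 127-week sample, the libraries with few Lars2 and Rn45s reads, and its ages overlapped (log2 fold change -0.38, standard error 0.97, edgeR adjusted p = 0.926). Of the other listed genes, Vgll3, a TEAD cofactor gene, and Foxf2 were also below the filter in all 6 samples, at an FPKM of 0.0239 to 0.137 for Vgll3 and of 0 to 0.126 for Foxf2.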
